A study of Mus musculus with 96 samples.

Results

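The genes described here encode the proteasome, the protease that breaks down ubiquitin-tagged proteins, together with its activators, inhibitor and assembly chaperones. They were chosen by name: every row of the count table whose symbol begins with Psma, Psmb, Psmc, Psmd, Psme, Psmf or Psmg and a number, with the 4 pseudogene rows marked -ps left out. That gave 50 of the 49466 genes in the table. The rule uses no measured level. Of the 50, 31 are the constitutive subunits of the 20S core and the 19S cap, 3 are the catalytic subunits of the immunoproteasome (Psmb8, Psmb9 and Psmb10), and Psmc3ip, a meiotic recombination factor, shares the name without being a subunit.

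The study profiled single erythroid progenitors of C57/Bl6J mouse fetal liver, taken on embryonic day 14.5, with Smart-seq2, a full-length method for polyadenylated RNA that does not mark the strand. Erythrocytes were lysed, and cells carrying CD3e, CD45R, Ly-6G, CD11b, Ter119, Sca-1, CD16/32 or CD41 were removed with magnetic beads. The rest were stained for Kit, CD71 and CD24 and sorted into 1 plate of 96 wells, 24 wells for each of 4 gates. The gates were BFUE (burst-forming unit erythroid, the earlier progenitor), CFUE (colony-forming unit erythroid, the later one) and 2 gates in between, labelled by 25-35% and 50-60% expression of CD71/CD24 (here the lower and upper intermediate). No genotype or treatment is named, and the labels do not say how many embryos or animals were used. Each gate was therefore 1 sample, its cells are not replicates, and no test between gates was possible. Each gate also filled 3 plate columns of its own, so gate and plate column cannot be told apart.

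The 20S core is a barrel of stacked rings: outer rings of alpha subunits (Psma) guard the entrance, and inner rings of beta subunits (Psmb) hold the cutting sites. The 19S cap adds a ring of ATPases (Psmc) that unfold the substrate and a set of non-ATPase subunits (Psmd) that bind ubiquitin chains and cut them off. In the immunoproteasome, which interferon induces and which blood cells of several lineages make without it, Psmb8, Psmb9 and Psmb10 take the places of Psmb5, Psmb6 and Psmb7, and the peptides it cuts feed MHC class I presentation. Red cell precursors are known for clearing much of their proteome through ubiquitin and the proteasome late in maturation.

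Levels are given as CPM, a gene's reads scaled to a common total of reads in each well, or in the summed wells of a gate. CPM are shares of the RNA sequenced, so the total RNA of a cell was not measured. Of the 96 wells, 91 were kept: 23 BFUE, 21 lower intermediate, 24 upper intermediate and 23 CFUE, with 947458 to 3785903 reads each. The 5 wells left out held 10596 to 16644 reads. The BFUE gate was also split at 100 CPM of Cd34, a stem and progenitor marker that is no member of the family, into 8 Cd34-high wells and 15 other wells. The 8 Cd34-high wells carried 470.1 CPM of 8 summed erythroid markers against 2494 in the other BFUE wells, 3581 and 4972 in the intermediates and 7455 in CFUE. They also carried 3186 CPM of stem markers (Cd34 itself included), 2850 CPM of neutrophil and monocyte markers and 814.5 CPM of lymphoid markers, against 137, 39.4 and 1.41 CPM in the other BFUE wells, with Elane, Ly6c2, Dntt, Cd3e and Blnk at 0. Hepatoblast markers summed to 82 to 230 CPM in these groups, and no 2 wells held identical counts. The kept well with most hepatoblast marker CPM was A2, among the other BFUE wells, at 1492 CPM. CFUE well D10, the kept well with fewest reads, held 10127 CPM of alpha ring genes but 1553 CPM of 19S non-ATPase genes, and 683 CPM of hepatoblast markers, the most of any CFUE well. Well A10 held 6024 CPM of standard beta ring genes. Both wells were picked out by these values, and the class sums, and the members whose values moved most, are given with and without them.

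The proteasome genes together took 1.33% of BFUE reads and 1.62% of CFUE reads. The 31 constitutive subunits summed to 11345 CPM in BFUE, 13111 in the lower intermediate, 13216 in the upper intermediate and 14164 in CFUE. Over wells, the sum ran from 8054 through a median of 11530 to 13735 CPM in BFUE and from 11843 through 14247 to 19802 CPM in CFUE. The ranges of the gates overlapped, with the CFUE median above the highest BFUE well. The CFUE to BFUE ratio of the sum was 1.248 (95% interval 1.243 to 1.254, exact binomial, counting error only). Most of the difference lay between BFUE and the lower intermediate, whose ratio was 1.16, while the upper to lower intermediate ratio was 1.01 and the CFUE to upper intermediate ratio 1.07. Without wells D10 and A10 the CFUE sum was 13824 CPM and its ratio to BFUE 1.22. All 31 subunits had reads in each of the 91 wells, also after every well was thinned to 500000 reads.

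**Figure D1:**
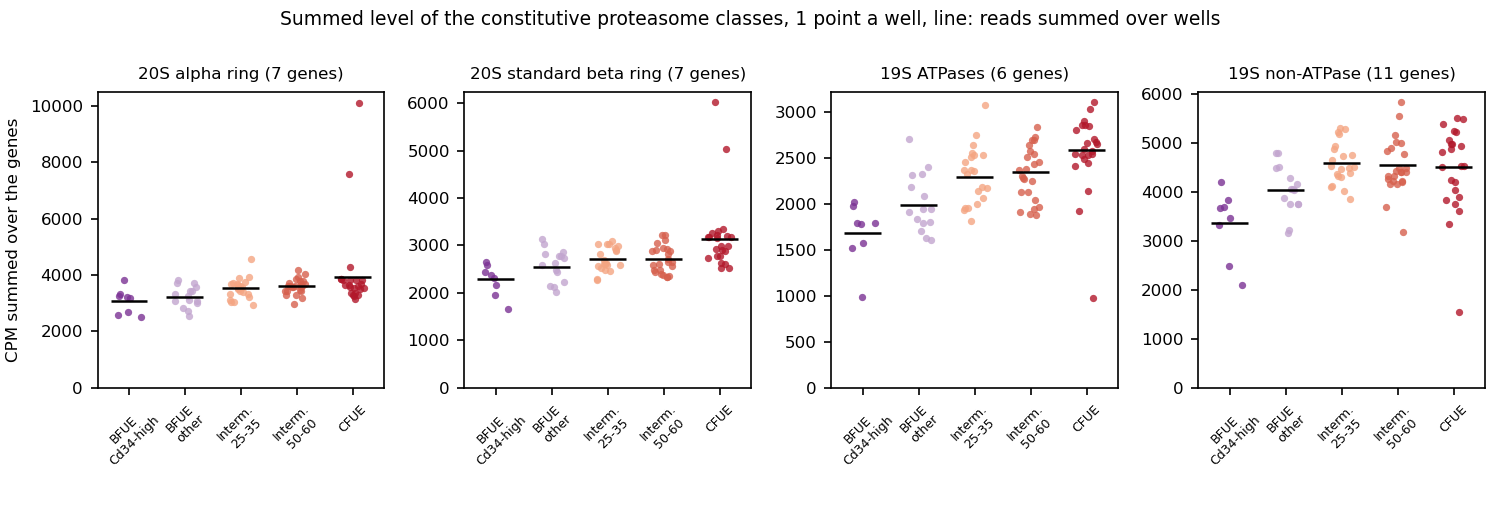
Summed CPM (y axis, linear from 0) of the 20S alpha ring, the standard 20S beta ring, the 19S ATPases and the 19S non-ATPase subunits in each kept well, with BFUE split at 100 CPM of Cd34. Points are wells and lines are the CPM of reads summed over the wells; the ATPase line lies at 1688 CPM in Cd34-high BFUE and 2587 CPM in CFUE, and CFUE well D10 lies far above the other wells in the alpha ring, at 10127 CPM, and lowest among CFUE wells in both 19S panels.

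A member counts as measured where it reached 10 CPM in either of the groups compared, and as higher or lower where its level differed by 1.5-fold or more. Between BFUE and CFUE, 49 members were measured, 7 were higher in CFUE and 3 lower. Of all 8701 genes measured in that comparison, 13.7% were higher by that rule and 29.6% lower. The median log2 ratio was 0.27 over the members, 0.29 over the constitutive subunits and -0.14 over all measured genes. By any amount, 29 of the 31 constitutive subunits were higher in CFUE, against 42.4% of all measured genes. The difference per subunit was small: 3 of the 31 passed 1.5-fold (Psmb2, Psmc2 and Psmc6). Scaling by edgeR's TMM factors in place of total reads would raise every log2 ratio of this comparison by 0.13. At a ratio of 5 to 4 or more, 18 members were higher and 6 lower, against 24% and 40.2% of all genes, and at 2-fold 2 were higher (Psma8 and Psmc6) and 2 lower (Psmb8 and Psmb9), against 6.96% and 19.9%. In no member were the wells of BFUE and CFUE free of overlap, which held for 0.149% of all measured genes.

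**Figure D2:**
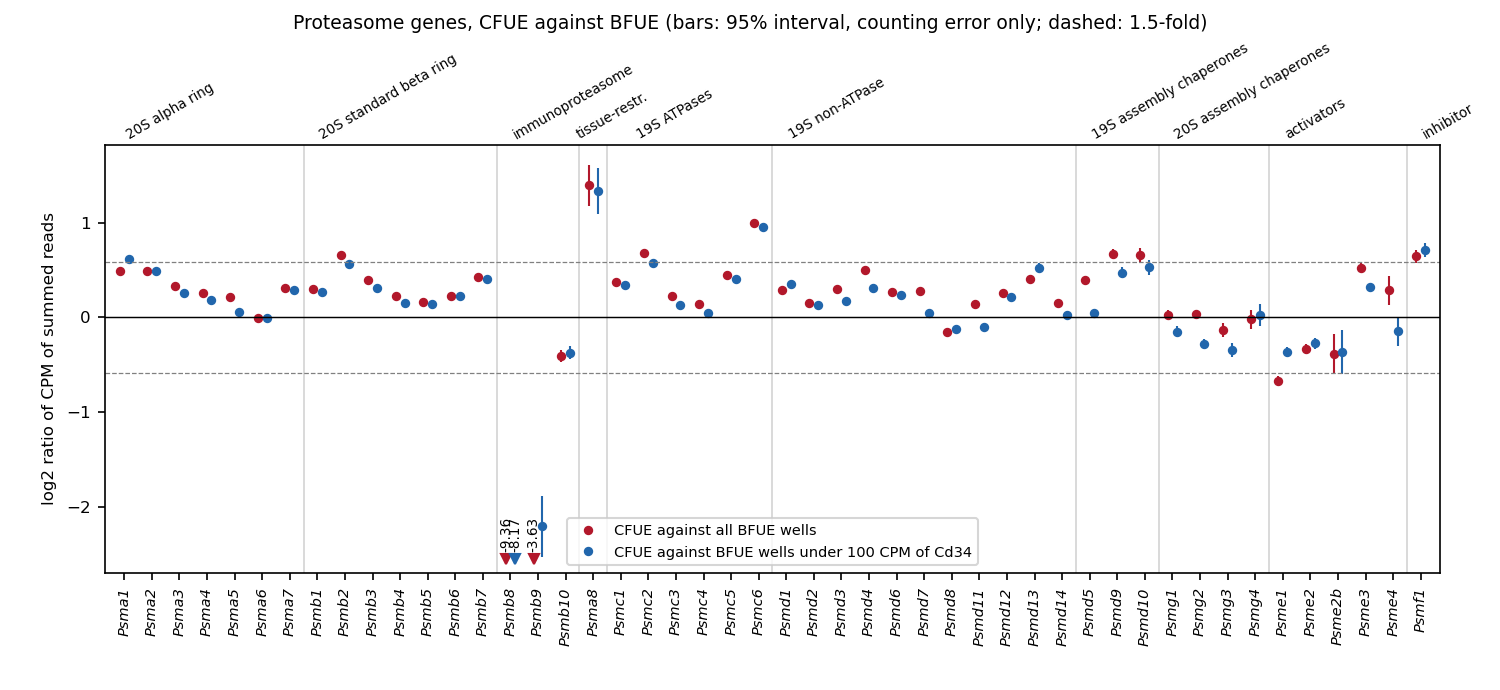
Log2 ratio of CPM (y axis) for each proteasome gene grouped by role, CFUE against all 23 BFUE wells (red) and against the 15 BFUE wells under 100 CPM of Cd34 (blue), which share the CFUE wells. Bars are 95% counting intervals, dashed lines mark 1.5-fold, and triangles with numbers mark values below the axis; most core and cap subunits lie a little above 0, Psmc6 lies at 1.0, and Psmb8 at -9.36 and -8.17.

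Among the alpha ring genes, 6 of 7 were higher in CFUE than in BFUE by any amount and none by 1.5-fold. With all wells Psma1 and Psma2 had the largest ratios, each at 1.40, Psma3, Psma4, Psma5 and Psma7 lay between 1.16 and 1.26, and Psma6 stood at 458 CPM in BFUE and 457 CPM in CFUE. Psma1, on chromosome 7 (GRCm38, chr7:114264606-114276118), ran over wells from 350 through 536 to 951 CPM in BFUE and from 397 through 631 to 3535 CPM in CFUE. The top value was well D10, and the remaining CFUE wells overlapped BFUE. Without D10 and A10 the log2 ratio of Psma1 went from 0.49 to 0.19, under those of Psma2 (0.29), Psma5 (0.27), Psma3 (0.25) and Psma7 (0.24), and that of Psma4 from 0.26 to 0.084. The summed alpha ring ratio was 1.245 with all wells, 1.19 without D10 and 1.14 without D10 and A10. Against the upper intermediate it went from 1.09 to 0.999, so that difference rested on these wells.

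All 7 standard beta ring genes were higher in CFUE by any amount, and the summed ratio was 1.27 (1.2 without D10 and A10). Psmb2, a structural subunit without a cutting site (chr4:126677630-126709714), reached 379 CPM in BFUE, 501 and 534 CPM in the intermediates and 598 CPM in CFUE, a ratio of 1.58 (1.55 to 1.61). Its wells ran from 214 through 359 to 533 CPM in BFUE and from 5.28 through 573 to 1428 CPM in CFUE, the extremes being D10 and A10. In plate rows E to H alone, and without the well holding most of its reads, its log2 ratio was 0.57, just under the 1.5-fold rule. Psmb1, Psmb3 and Psmb4, also structural, had ratios of 1.24, 1.31 and 1.17. Of the catalytic subunits, Psmb5, the chymotrypsin-like site, had a ratio of 1.12, Psmb6, the caspase-like site, 1.17, and Psmb7, the trypsin-like site, 1.35. Without D10 and A10 the log2 ratio of Psmb1 went from 0.30 to 0.10 and that of Psmb6 from 0.23 to 0.059. Psmb5 wells ran from 164 through 289 to 403 CPM in BFUE and from 245 through 315 to 383 CPM in CFUE, inside the BFUE range. Psmb6 ran from 193 through 417 to 654 CPM and from 280.4 through 453 to 1451 CPM, and Psmb7 from 126 through 188 to 289.7 CPM and from 176 through 263 to 489.7 CPM. The top CFUE well of each was D10.

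The 19S ATPases showed the largest summed ratio of the core and cap classes, 1.36, and 1.38 without D10 and A10. All 6 were higher in CFUE by any amount. Psmc6 (Rpt4; chr14:45329788-45349705) reached 191 CPM in Cd34-high BFUE wells, 213 CPM in the other BFUE wells, 316 and 348 CPM in the intermediates and 413 CPM in CFUE, where it was 2.0 times the BFUE level (1.95 to 2.06). Its wells ran from 71.5 through 206 to 341 CPM in BFUE and from 241 through 384 to 836 CPM in CFUE. The CFUE median lay above the highest BFUE well, and the lowest CFUE wells lay within the BFUE range. Psmc2 (Rpt1) had 283 CPM in BFUE and 454 CPM in CFUE, a ratio of 1.60 (1.57 to 1.64). Against the whole BFUE gate, Psmc2 and Psmc6 passed 1.5-fold in each of the 12 alternative settings tried. Their log2 ratios were 0.64 to 0.81 and 0.89 to 1.13. Against the other BFUE wells alone, the log2 ratio of Psmc6 was 0.96 and that of Psmc2 0.579, just under the 1.5-fold rule. Psmc1, Psmc3 and Psmc5 had ratios of 1.29, 1.17 and 1.37, and Psmc4, the least different ATPase, 1.1.

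Of the 11 non-ATPase subunits, 10 were higher in CFUE by any amount and none by 1.5-fold, and the summed ratio was 1.18. Psmd4, a ubiquitin receptor, had the largest ratio at 1.41. Psmd14, the enzyme that cuts ubiquitin chains off the substrate, had a ratio of 1.11, and Psmd2, a scaffold that docks ubiquitin shuttles, 1.11. Psmd1, Psmd3, Psmd6, Psmd7, Psmd11, Psmd12 and Psmd13 lay between 1.10 and 1.33. Psmd8 was the member of this class that lay lower in CFUE, at 308 CPM in BFUE and 278 CPM in CFUE. Against the upper intermediate the class sum had a ratio of 0.992.

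The sequences below show letters in core promoters that are known from proteasome genes, since many of these genes share a response element for the factor Nfe2l1. RefSeq promoter windows (GRCm38.p6, 250 bases before to 50 after the start) were matched by symbol for 42 of the 50 members, in 45 windows. The antioxidant response element core, searched as TGACNNNGC on both strands, was found in 6 of the 45 windows, 13.3%, and in 12.4% of all 32851 windows. Of the 6, the catalytic subunits Psmb5 and Psmb6 and the ATPase with the largest ratio, are printed with the match in capitals, at chr14:54618024-54618053 (minus strand), chr11:70525337-70525366 (plus) and chr14:45329586-45329615 (plus, match on the opposite strand).
Psmb5: acgtgaagttgTGACGTCGCggcgttgcca
Psmb6: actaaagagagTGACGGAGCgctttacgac
Psmc6: gccagccagtaGCTAAGTCAggcattgctc
Such a match describes the letters and is not a measured site. Psmc6 had the ratio of 2.0 given above, and Psmb5 and Psmb6 had ratios of 1.12 and 1.17 with the same core.

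The immunoproteasome subunits Psmb8 and Psmb9 went the other way from the core, highest in the Cd34-high BFUE wells and lower at each step down to the upper intermediate. Psmb8 (LMP7, chymotrypsin-like; chr17:34197721-34201454) had 288 CPM in the Cd34-high BFUE wells, 56.8 CPM in the other BFUE wells, 8.79 CPM in the lower intermediate, 0.165 CPM in the upper intermediate and 0.197 CPM in CFUE. The CFUE value rested on 7 reads in 7 wells, against 4941 reads in BFUE. Its wells ran from 44.2 through 260.5 to 574 CPM in Cd34-high BFUE, from 0 through 33.9 to 194 CPM in the other BFUE wells, and from 0 through 1.96 to 65 CPM in the lower intermediate. No well of the upper intermediate exceeded 1.42 CPM and none of CFUE 1.06 CPM. Every Cd34-high well thus lay above every well of the upper intermediate and CFUE. The share of all genes for which this held was not counted. The other BFUE wells overlapped all gates, with 2 of 15 at 0. Psmb8 was 655-fold lower in CFUE than in BFUE (318- to 1631-fold) and 288-fold lower than in the other BFUE wells alone (139- to 717-fold).

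Psmb9 (LMP2, caspase-like position; chr17:34181987-34187764) had 86.1 CPM in Cd34-high BFUE, 13.5 CPM in the other BFUE wells, 3.06 CPM in the lower intermediate, 0.549 CPM in the upper intermediate and 2.93 CPM in CFUE. Its wells ran from 54.7 through 85.6 to 129 CPM in Cd34-high BFUE and from 0 through 0.653 to 65.5 CPM in the other BFUE wells. The CFUE median was 0, and 4 of its 23 wells held 10 or more of the gate's 104 reads, up to 26.9 CPM in well D12. Psmb9 was 12.4-fold lower in CFUE than in BFUE (10.1- to 15.2-fold) and 4.6-fold lower than in the other BFUE wells (3.69- to 5.79-fold).

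Psmb10 (MECL-1, trypsin-like; chr8:105935735-105938444) did not follow them. It had 138 and 128 CPM in the Cd34-high and other BFUE wells, 151 CPM in the lower intermediate, 114 CPM in the upper intermediate and 99.0 CPM in CFUE. All 91 wells had reads of it. Wells ran from 35.1 through 113 to 205 CPM in BFUE and from 11.7 through 84.1 to 575 CPM in CFUE, and the top well was D10. The ratio of CFUE to BFUE was 0.754 (0.722 to 0.787), and its log2 value was -0.41 with all wells, -0.61 without D10, 0.24 in the plate's upper rows (A to D) and -1.22 in its lower rows (E to H). The direction of Psmb10 between these gates therefore depended on the plate rows used.

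**Figure D3:**
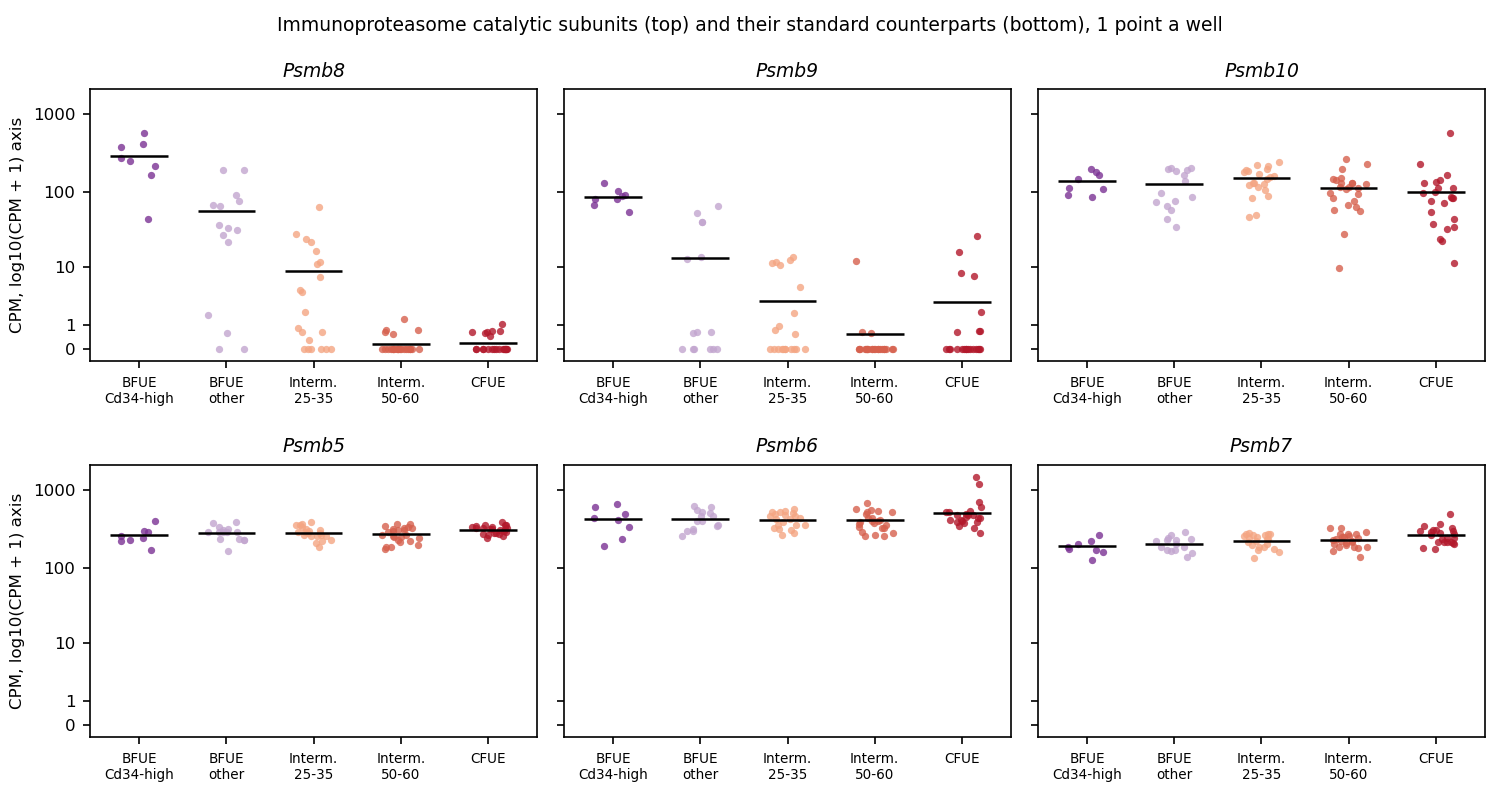
CPM (y axis, spaced as log10 of CPM + 1) of the immunoproteasome subunits in the top row and of the standard subunits they replace in the bottom row, for each well of the BFUE gate split by Cd34, the intermediates and CFUE. Lines are the CPM of summed reads; Psmb8 goes from 288 CPM to under 1 CPM, Psmb10 stays between 99.0 and 151 CPM, and Psmb5, Psmb6 and Psmb7 lie at similar heights in every group.

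Psmb8 and Psmb9 lie near each other on chromosome 17 in the MHC region, and Psmb9 faces Tap1, a peptide transporter subunit, head to head: their RefSeq starts, 34187330 and 34187556, leave 225 bases between them. The GENCODE models of the pair share 212 bases on opposite strands, so reads there cannot be assigned by strand. The printed stretches hold the letters searched for known factors of this system, in capitals: a match to the gamma-activated sequence TTCNNNGAA for Psmb8 (chr17:34198087-34198116, plus), a CCAAT match for Psmb9 (chr17:34187322-34187351, minus, match on the opposite strand) and a match to the interferon-stimulated response element core (GAAA, NN and GAAA in a row) for the activator Psme1 (chr14:55578493-55578522, plus, match on the opposite strand). GENCODE places all 30 bases of each in an exon of the named gene.
Psmb8: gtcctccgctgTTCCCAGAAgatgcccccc
Psmb9: cgcgcagccgctgATTGGaaagccgagccc
Psme1: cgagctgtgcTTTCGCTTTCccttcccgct
TTCNNNGAA was found in 3 of the 45 member windows (6.67%, and 8.30% of all windows), CCAAT in 15 (33.3%, and 37.4% of all) and the interferon-stimulated response element core in 5 (11.1%, and 3.44% of all), the 5 being those of Psmb3, Psmd4, Psmd9, Psme1 and Psmg4. The 5 went different ways: Psme1 was lower in CFUE than in BFUE at a ratio of 0.629, and Psmd9 higher at 1.59.

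Compared per kilobase of exon with the subunit it replaces, Psmb8 made up 22.4% of Psmb8 and Psmb5 in Cd34-high BFUE wells, 5.11% in the other BFUE wells, 0.816% in the lower intermediate, 0.0161% in the upper intermediate and 0.0170% in CFUE. Single wells reached 33.9% in Cd34-high BFUE, 18.5% in the other BFUE wells and 8.52% in the lower intermediate. In the upper intermediate none exceeded 0.125%. The well at 18.5% was A2, which held the most hepatoblast marker CPM, and the part of those transcripts was not tested. Psmb9 made up 9.35% of Psmb9 and Psmb6 in Cd34-high BFUE, 1.58% in the other BFUE wells, 0.377% and 0.0680% in the intermediates and 0.297% in CFUE. Psmb10 made up 59.4% and 56.3% of Psmb10 and Psmb7 in the BFUE parts, 57.4% and 49.8% in the intermediates and 42.9% in CFUE. Over CFUE wells the Psmb10 share ran from 8.77% to 70.2%, the highest in D10. So the pairs went apart. By exon length and summed over wells, Psmb8 and Psmb9 made up under 1% of their pairs from the lower intermediate on. Psmb10 stayed above 40% of its pair in every group by that length. By coding length Psmb8 made up 2.87% in the lower intermediate, and Psmb10 39.5% in the other BFUE wells and 33.4% in the upper intermediate. The exon length joined all annotated transcripts, 3381 bases for Psmb8 and 899 for Psmb5, against coding lengths of 828 and 792. With coding length in place of exon length the shares differed in size. Psmb8 then took 51% in Cd34-high BFUE and 0.0611% in CFUE, and Psmb10 42.6% and 27.5%. The order of the groups within a pair could not change, since a length rescales a gene alike in every group.

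**Figure D4:**
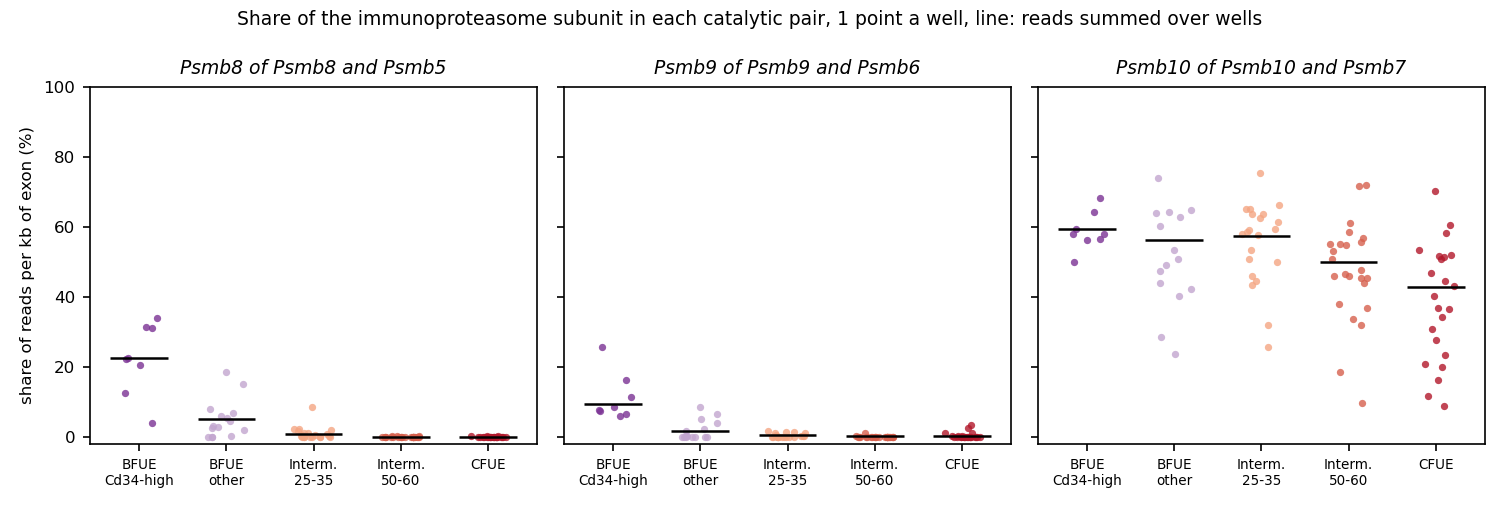
Share (y axis, percent of reads per kilobase of exon) of each immunoproteasome subunit in the sum of it and the standard subunit it replaces. Exon length joins all annotated transcripts, and with coding length the Psmb8 share in Cd34-high BFUE was 51%. Points are wells, lines the reads summed over the wells of a group; the Psmb8 share is 22.4% in Cd34-high BFUE and 0.0170% in CFUE, the Psmb9 share 9.35% and 0.297%, and the Psmb10 share lies between 42.9% and 59.4%.

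Of the 5 activators, 1 was lower in CFUE than in BFUE by 1.5-fold (Psme1) and none higher, where 29.6% and 13.7% of all genes were. Psme1 (PA28 alpha) and Psme2 (PA28 beta) form the interferon-inducible cap that opens the 20S core. Psme1 had 379 CPM in Cd34-high BFUE, 216 CPM in the other BFUE wells, 158 and 153 CPM in the intermediates and 168 CPM in CFUE. Its wells ran from 108 through 206 to 499.9 CPM in BFUE and from 70.3 through 136 to 409.5 CPM in CFUE, so the gates overlapped. It was 1.59-fold lower in CFUE than in BFUE (1.54- to 1.64-fold), and its log2 ratio of -0.67 went to -0.54 with TMM factors and -0.55 with DESeq2 factors, under the 1.5-fold rule. Psme2 had 207 and 182 CPM in the BFUE parts and 152, 138 and 151 CPM after that, a CFUE to BFUE ratio of 0.794. Psme2b, a near copy whose reads may be split with Psme2, had a ratio of 0.764. Psme3 (PA28 gamma), the nuclear relative, had 170 CPM in BFUE, 172 and 256 CPM in the intermediates and 245 CPM in CFUE. Psme4 (PA200) was low in all gates, 12.2 to 21.5 CPM, and well G10 held 37% of its summed CPM in CFUE. Its ratio of 1.76 between CFUE and the upper intermediate came to a log2 value of 0.22 without the well holding most of its reads and -0.32 in plate rows A to D. Psmf1 (PI31), which inhibits the 20S core in vitro, had 80.5 CPM in BFUE, 100.4 and 144 CPM in the intermediates and 126 CPM in CFUE, a ratio of 1.57 (1.49 to 1.64) that lost 1.5-fold in 4 of 12 settings, with log2 values of 0.53 in rows E to H, 0.545 thinned to 500000 reads, 0.574 without the well holding most of its reads and 0.575 as a mean over cells.

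Of the 3 assembly chaperones of the 19S base, 2 were higher in CFUE than in BFUE by 1.5-fold (Psmd9 and Psmd10). Of all genes, 13.7% were. Psmd9 (p27) had 111 CPM in BFUE and 176 CPM in CFUE, a ratio of 1.59, Psmd10 (gankyrin) 68.4 and 108 CPM, a ratio of 1.58, and Psmd5 (S5b) 266 and 351 CPM, a ratio of 1.32. Against the other BFUE wells alone, these ratios were 1.39, 1.44 and 1.04, and none passed 1.5-fold. Psmd10 came to a log2 value of 0.31 against all BFUE wells in plate rows A to D and 0.581 without D10 and A10, both under the rule. The chaperones of the 20S core were closer to even: Psmg1 had a ratio of 1.02, Psmg2 1.02, Psmg3 0.915 and Psmg4 0.985 between CFUE and BFUE. Psmg1 and Psmg2 pair to start the alpha ring, and Psmg3 and Psmg4 to complete it. Against the other BFUE wells, Psmg2 had a ratio of 0.824 and Psmg3 0.787.

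The tissue-restricted 20S genes were low. Psma8, the testis alpha subunit, had 6.55 CPM in BFUE, 6.54 and 11.5 CPM in the intermediates and 17.2 CPM in CFUE, with reads in 7 of 23 BFUE wells and 8 of 23 CFUE wells and a median of 0 in each gate. Its ratio of 2.63 between CFUE and BFUE turned to a log2 value of -0.27 in plate rows E to H. Psmb11, the thymus beta subunit, had 1 read in all, in the lower intermediate. Psmc3ip had 50.4 CPM in BFUE and 58.9 CPM in CFUE. Where members overlap other genes, reads may be shared: Psma2 with AW209491 over 8943 bases of their spans, Psmb7 with Nek6 over 6571 and Psmc3 with Slc39a13 over 4579. Per kilobase of exon, the highest members in CFUE were Psmb2 (497 CPM per kb), Psma6 (370), Psmb5 (344) and Psma5 (340). The lowest were Psmb11 (0), Psmb8 (0.0584), Psmb9 (0.801) and Psme4 (2.57). That exon length joins all annotated transcripts. It was 1204, 1234, 899 and 1321 bases for the 4 highest, against 2952 for Psma1 and 3071 for Psma7. The coding lengths of Psma1 and Psma7 were 789 and 744 bases. This order therefore depends on the length used, and none by coding length was computed.

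Between BFUE and the lower intermediate, 1 of 48 measured members was higher (Psmc6, ratio 1.53, and a log2 value of 0.51 in plate rows E to H) and 3 were lower (Psmb8, Psmb9 and Psme1), where 10.1% and 24.3% of all measured genes were. Between the lower and upper intermediate, 1 of 46 was higher (Psma8) and none lower, against 7.34% and 9.27% of all genes. Psma8 came to a log2 value of 0.20 without the well holding most of its reads. Between the upper intermediate and CFUE, 2 of 46 were higher (Psma8 and Psme4) and none lower, against 7.98% and 9.7%. Psma8 came to a log2 value of -0.30 there in plate rows E to H. In these later steps Psmb8 and Psmb9 were under 10 CPM in both gates and were not counted. The median log2 ratios over the members were 0.19, 0.01 and 0.09 in turn.

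Within the BFUE gate, Psmb8 and Psmb9 were higher in the Cd34-high wells by 1.5-fold in each of the 10 settings tried. The members lower there came from several classes. Of 48 measured members, 3 were higher in the 8 Cd34-high wells by 1.5-fold or more and 10 lower, where 30.4% and 25.4% of all 9224 measured genes were, and the median log2 ratio was -0.15. The 3 higher were Psmb9 (ratio 6.37, 5.64 to 7.21), Psmb8 (5.07, 4.77 to 5.39) and Psme1 (1.75, 1.69 to 1.82). Psme1 came to a log2 value of 0.07 in plate rows A to D. The 10 lower were Psme4 (0.172), Psmd5 (0.313), Psmg2 (0.381), Psmd11 (0.505), Psmd7 (0.515), Psmg3 (0.553), Psme3 (0.570), Psmd9 (0.592), Psmd4 (0.615) and Psmg1 (0.627). Thus 5 of the 7 assembly chaperones were among them. At a ratio of 5 to 4 or more, 5 members were higher and 17 lower, against 37.9% and 35.3% of all genes, and at 2-fold 2 were higher and 3 lower, against 22.4% and 15.1%. Psmd11, Psmd7, Psmd9, Psme3 and Psmg1 were under 1.5-fold in rows A to D, and the other 5 passed 1.5-fold in each of the 10 settings tried. No member was free of overlap between the parts of the gate, against 0.997% of all genes.

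Psmd5 had wells from 0.735 through 80.6 to 313 CPM in the Cd34-high part and from 216 through 303 to 487 CPM in the other part. The parts overlapped in the top Cd34-high well, E3. Psmg2 ran from 7.17 through 94.3 to 147 CPM and from 109 through 223 to 371 CPM. Psmd7, a 19S lid subunit, ran from 96 through 237 to 449 CPM and from 206 through 504 to 650.3 CPM. The class sums of the 20S core were close between the parts. The alpha ring summed to 3060 CPM in Cd34-high wells and 3208 CPM in the others. The standard beta ring summed to 2282 and 2551 CPM. Single ring genes ran from a log2 ratio of -0.58 (Psma5) to 0.38 (Psma1). The constitutive sum was 10392 CPM against 11780 CPM, 1.13-fold lower in the Cd34-high wells. The constitutive subunits were lower in 26 of 31 cases by any amount, and in 18 of 31 within plate rows A to D. The stem, neutrophil and monocyte, and lymphoid markers given above moved with these differences, and their part in them was not tested. Endothelial and stromal markers summed to 200.8 CPM in Cd34-high wells and 13.2 CPM in the others. Of their 6 genes, Cdh5, Kdr, Col1a1 and Col3a1 were at 0 in the Cd34-high wells, and Kdr had reads only in the others. Mast cell and basophil markers summed to 35.2 and 0.0382 CPM, all from Cpa3. Their median over the Cd34-high wells was 0, and well E3 held 243 CPM. The part of these 2 lists was not tested either. With the Cd34-high wells left out, CFUE had 4 members higher (Psma1, Psma8, Psmc6 and Psmf1) and 2 lower (Psmb8 and Psmb9), where 13.6% and 24.9% of all genes were, and a constitutive ratio of 1.2. Psma1 rested there on the wells that stood apart: its log2 ratio of 0.62 was 0.46 without D10 and 0.32 without D10 and A10. Psma8 came to -0.27 and Psmf1 to 0.58 in plate rows E to H. In the same way the lower intermediate had 0 of 48 members higher and 3 lower (Psmb8, Psmb9 and Psme4), where 9.54% and 17.7% of all genes were. Psme4 was uneven there, with reads in 14 of 21 lower intermediate and 11 of 15 other BFUE wells. Its coefficients of variation over wells were 134% and 139%, and no alternative setting was run for the lower intermediate against the other BFUE wells. The CFUE comparison shares the CFUE wells with the one over the whole BFUE gate. Both comparisons share the other BFUE wells with the Cd34 split.

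**Figure D5:**
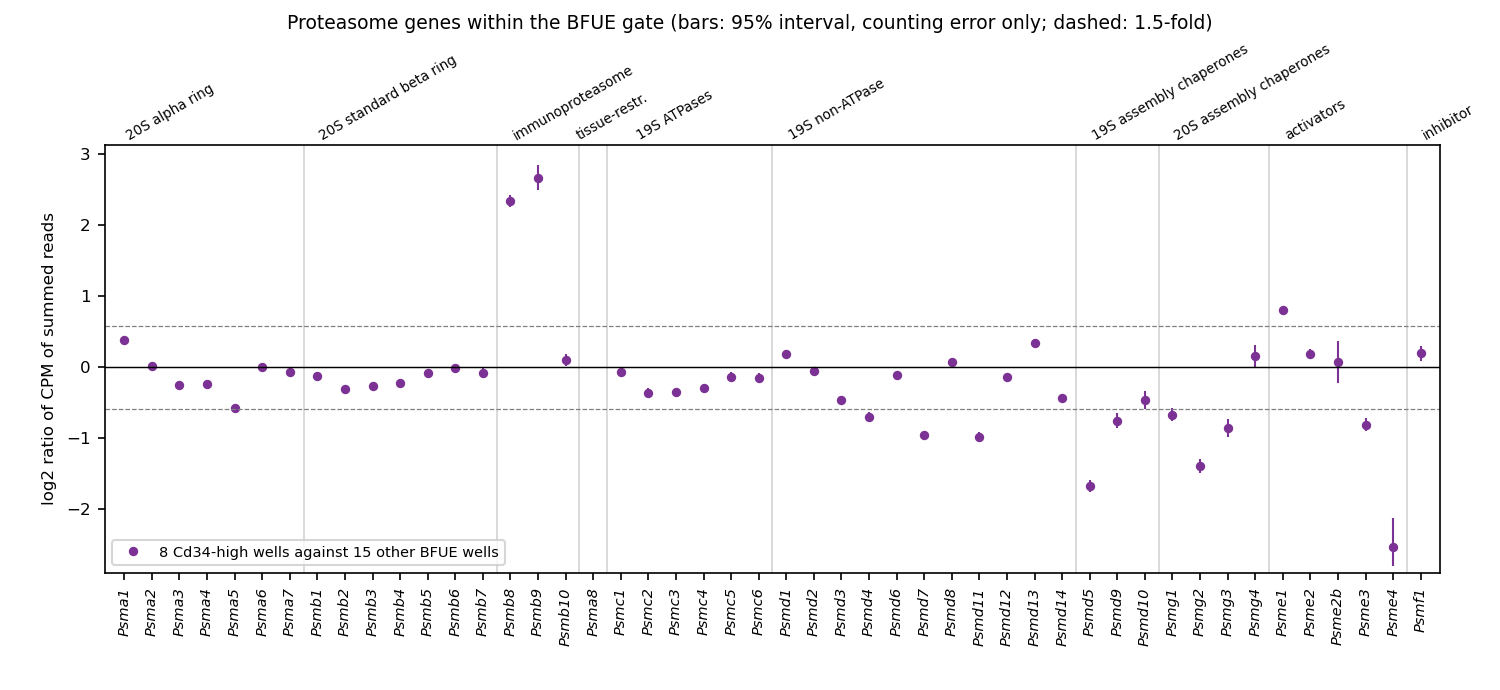
Log2 ratio of CPM (y axis) of each proteasome gene measured in the BFUE gate, 8 wells at 100 CPM or more of Cd34 against the 15 others. Bars are 95% counting intervals and dashed lines mark 1.5-fold. Psmb8 and Psmb9 stand above 2, and Psmd5, Psmg2 and Psme4 lie lowest. The alpha and standard beta ring genes lie between -0.58 (Psma5) and 0.38 (Psma1).

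Over the 23 BFUE wells, the CPM of Psmb8 and Psmb9 had a Spearman correlation of 0.69. Within the 15 other wells it was 0.32 and within the 8 Cd34-high wells 0.02, so the value over the gate was not seen within its parts. Psmb8 and B2m gave 0.55 over the gate and -0.15 and -0.21 within the parts. Psmb9 and Tap1, whose starts lie head to head, gave 0.25 over the gate. These describe cells of 1 plate and are given without a test. In the upper intermediate, the coefficient of variation over wells was 10.4 to 19.4% for alpha ring genes, 16.7 to 27.8% for standard beta ring genes and 17.7 to 28.6% for 19S ATPases. In CFUE the same classes reached 84.1%, 61.7% and 30.2%, with D10 and A10 included.

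The other genes of antigen presentation and ubiquitin use were taken from lists. Of 10 MHC class I presentation genes, 5 were lower in CFUE than in BFUE by 1.5-fold or more and none higher, where 29.6% of all genes were lower and 13.7% higher, and the median log2 ratio was -0.72. In the Cd34-high wells 7 were higher than in the other BFUE wells and none lower, where 30.4% and 25.4% of all genes were. Tap1 went from 66.6 and 40.7 CPM in the BFUE parts through 20.5 and 5.57 CPM to 2.23 CPM in CFUE. Tap2, the other transporter subunit, went from 146 and 58.2 CPM through 31.5 and 26.3 CPM to 15.8 CPM. B2m, the MHC class I light chain, had 778 CPM in Cd34-high BFUE and 218 CPM in the other BFUE wells, and 142, 136 and 154 CPM after that. So Tap1 lay lower at each gate, and B2m differed mainly inside the BFUE gate.

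Of 13 measured interferon and MHC regulators, 10 were lower in CFUE than in BFUE and none higher, and 9 were higher and 1 lower in the Cd34-high wells, beside the same shares of all genes (29.6% lower and 13.7% higher in CFUE, 30.4% higher and 25.4% lower in Cd34-high wells). Irf1, the factor that drives immunoproteasome genes after interferon, had 126 CPM in Cd34-high wells, 7.44 CPM in the other BFUE wells and at most 1.55 CPM in the later gates. Irf8, a monocyte and lymphoid factor, had 59.7 CPM in Cd34-high wells 0 in the other BFUE wells and at most 0.0644 CPM in the later gates. Nlrc5, the MHC class I transactivator, had 1.07 CPM in BFUE, 0.0322 CPM in the lower intermediate and 0 in the gates after it.

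The proteasome partners outside the name pattern differed little. Of 11 measured, none was 1.5-fold higher or lower in CFUE than in BFUE, where 13.7% and 29.6% of all genes were. Pomp, which matures the 20S core, had a ratio of 1.15, Adrm1, a ubiquitin receptor, 1.2, Usp14, which trims ubiquitin at the cap, 1.23, and Zfand5 0.715. Among 10 measured regulators of proteasome genes, beside the same shares, Ddi2, the protease that activates Nfe2l1, was higher at a ratio of 1.57. Nfya (0.263) and Mafg (0.649) were lower, while Nfe2l1 itself had 34.6 CPM in BFUE and 37.8 CPM in CFUE. In the Cd34-high wells 5 of the 10 were lower than in the other BFUE wells and none higher, where 25.4% and 30.4% of all genes were, Nfe2l1 at 0.559 and Nfe2l2 at 0.487.

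Of 6 ubiquitin and E1 genes, Uba6, the alternative E1, was lower in CFUE at a ratio of 0.264. None was higher, beside 29.6% of all genes lower and 13.7% higher. Of 10 measured ubiquitin enzymes known from erythroid cells, 4 were higher and 1 lower in CFUE than in BFUE, where 13.7% and 29.6% of all genes were. Trim10 went from 0.262 CPM in BFUE through 14.5 and 32.4 CPM to 122 CPM in CFUE, Ube2l6 had a ratio of 7.04, Rnf123 1.92 and Fbxo7 1.84, and Rmnd5a was lower at 0.165. Trim10 and Ube2l6 thus differed by more than Psmc6, whose ratio of 2.0 was the largest of the 31 constitutive subunits.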

How the data were processed

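The deposited file is a table of raw read counts per gene and well, with gene symbols joined to Ensembl identifiers; per the submitters' processing notes the authors used STAR 2.4, featureCounts and GRCm38. Counts were taken as deposited, without rounding or normalization, and 0 columns lacked a sample. Wells under 50000 reads were left out. Reads were summed over the wells of a gate and given as CPM, with exact Poisson intervals, and ratios with exact conditional binomial (Clopper-Pearson) intervals at 95%, which cover counting error only: PCR reads without molecular identifiers are not independent molecules. Each gate is 1 sample, so no p-value was computed. A gene was measured at 10 CPM in either group and called at 1.5-fold. Members were named by role, by fold, by the largest and smallest ratios and by level per kilobase. The gene family, although its rule uses names alone, and the lists were chosen with earlier results of these data known. For each gene the well holding most of its reads was left out as 1 alternative. Coordinates and lengths came from GENCODE M21, to which all 50 members matched, and promoters from RefSeq. Alternatives used edgeR 4.0.16 and DESeq2 1.42.0 factors, thinning, plate rows and other totals; the interval script was checked on simulated data. Python 3.11.15, pandas 2.3.3 and scipy 1.17.1 were used. The list of ubiquitin shuttle and segregase genes is not reported here.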

Additional observations from a re-analysis of the deposited data

How the results depend on the processing

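No paired analysis was possible because each gate is 1 sample and its replicate numbers only name wells. For CFUE against BFUE, the median log2 ratio of the members (0.27) was 0.40 with TMM factors, 0.39 with DESeq2 factors, 0.18 in plate rows E to H and 0.33 in rows A to D. There the immunoproteasome sum (-1.54) was -1.47 as a mean over cells, -1.41 with TMM, -1.42 with DESeq2, -2.07 in rows E to H, -1.17 in rows A to D, -1.40 when thinned to 500000 reads, -1.45 without the well holding most of its reads, -1.74 without D10 and -1.73 without D10 and A10, the last a choice made, like coding length, after seeing the data. The members higher (7) were 18 at a ratio of 5 to 4 and 2 at 2-fold, and those lower (3) were 6 at 5 to 4. Psma8 turned to -0.27 in rows E to H against BFUE and against the other BFUE wells. The medians of the lower intermediate against BFUE (0.19) were 0.26 with TMM and 0.29 with DESeq2, and those of CFUE against the upper intermediate (0.09) were 0.035 in rows E to H and 0.16 in rows A to D. For Cd34-high against other BFUE wells, the median (-0.15) was -0.28 in rows E to H and -0.15 in rows A to D (over the constitutive subunits -0.29 and -0.048), the immunoproteasome sum (1.36) was 1.45 thinned and 1.28 without the well holding most of its reads, and the counts higher and lower (3 and 10) were 5 and 17 at 5 to 4, with 3 lower at 2-fold. For CFUE against other BFUE wells, the median (0.17) was 0.28 with TMM, 0.29 with DESeq2, 0.063 in rows E to H and 0.23 in rows A to D. Its immunoproteasome sum (-0.96) was -0.81 as a mean over cells, -0.85 with TMM and with DESeq2, -1.48 in rows E to H, -0.59 in rows A to D, -0.72 thinned, -0.87 without the well holding most of its reads, -1.16 without D10 and -1.15 without D10 and A10. With coding length, Psmb8 took 51%, 16.2%, 2.87%, 0.0578% and 0.0611% of its pair in Cd34-high BFUE, other BFUE, the intermediates and CFUE, Psmb9 18%, 3.30%, 0.797%, 0.144% and 0.629%, and Psmb10 42.6%, 39.5%, 40.5%, 33.4% and 27.5%. The cause of these shifts was not tested. Coding length from a protein table was not run. Of the 10 members past 1.5-fold between CFUE and BFUE, 5 passed in every setting (Psmb8, Psmb9, Psmc2, Psmc6 and Psmd9), and of the 13 in the Cd34 split, 7 did. Psmb8 in the upper intermediate and CFUE rests on 6 and 7 reads, so its order between these gates was not detectable at this depth.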
